A study of Mus musculus with 6 samples.

Results

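The 9 macrophage genes described here, C1qa, C1qb, C1qc, Cd68, Fcer1g, Itgam, Laptm5, Lyz2 and Pf4, were read in cultures labelled as primary fibroblasts. They were chosen by symbol as genes that mark macrophages, after their counts in these cultures had been seen. They are 9 of the 12023 genes in the deposited count table, and all 9 passed the filter on low counts that left 8752 genes for testing. Because the choice used these values, the strain difference of the 9 genes is given as a description.

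The cells came from mammary fat pads of untreated, healthy females aged 8 to 12 weeks, of the inbred mouse strains BALB/c and C57BL/6, with 3 biological replicates per strain. In both strains the tissue was digested enzymatically, the red blood cells were lysed, fibroblasts were isolated magnetically, with a target that the labels do not name, and the cells were cultured for 4 days on a collagen coat. The study asked how normal mammary fibroblasts of the strains differ at baseline. Reads from the 3′ ends of polyadenylated RNA were counted per gene. These are primary cultures rather than sorted cells, and how far the separation removes other cells is not stated in the labels.

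Macrophages are phagocytes of the innate immune system that live in most tissues, the mammary gland and its fat pad included, where they clear dying cells and take part in the remodelling of the ducts. They adhere firmly to culture plastic, and they depend on signals through the receptor encoded by Csf1r and on the transcription factor PU.1, encoded by Spi1. In tissue, macrophages are the main source of C1q, the recognition protein of the classical complement pathway, which binds antibody complexes and dying cells. C1q is built from chains encoded by C1qa, C1qb and C1qc. Of the other genes, Lyz2 encodes lysozyme, Cd68 a membrane glycoprotein of late endosomes and lysosomes, and Laptm5 a lysosomal membrane protein of blood cells. Fcer1g encodes the signalling chain shared by Fc receptors, Itgam the integrin alpha M (CD11b) chain of complement receptor 3, and Pf4 the chemokine CXCL4, which platelets and several tissue macrophages make.

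The genes lie at 7 places in the genome. On mm10 (GRCm38, annotation GENCODE vM21) the C1q genes lie side by side on the minus strand, at chr4:136880129-136886187 for C1qb, chr4:136889804-136893065 for C1qc and chr4:136895917-136898803 for C1qa, so that the cluster spans 18.7 kb. Laptm5 lies on the same chromosome at chr4:130913125-130936141. The others are Pf4 at chr5:90772435-90773383, Lyz2 at chr10:117277331-117282321, Cd68 at chr11:69664213-69666153, Fcer1g at chr1:171229572-171234365 and Itgam at chr7:128062640-128118491. The exons of Itgam overlap those of Gm49368 on the same strand, which is not analysed here. The 3′ end of Lyz2 matches that of its neighbour Lyz1 at 97.0% identity over 497 nt, so reads of Lyz2 could be split with or lost to Lyz1, and the Lyz2 level is uncertain to that extent. Lyz1 itself held 0 to 7 counts per library. No such near-identical copy was found for any of the other 8 genes.

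The promoters of 4 of these genes are printed because they belong to C1qb and C1qc of the C1q cluster, and to Pf4 and Lyz2, which had the largest and the smallest strain difference in the reported fit. With an offset for GC content and length the smallest was that of C1qa. The sequences are RefSeq's on GRCm38.p6, read 5′ to 3′ on the strand of the gene, from 250 bases before to 50 after the start of the gene. The windows are chr4:136886151-136886450 on the minus strand for C1qb, chr4:136892865-136893164 on the minus strand for C1qc, chr5:90772185-90772484 on the plus strand for Pf4 and chr10:117282223-117282522 on the minus strand for Lyz2. Capitals mark the PU box, GAGGAA or its reverse complement TTCCTC, the core that PU.1 is known to bind.
C1qb: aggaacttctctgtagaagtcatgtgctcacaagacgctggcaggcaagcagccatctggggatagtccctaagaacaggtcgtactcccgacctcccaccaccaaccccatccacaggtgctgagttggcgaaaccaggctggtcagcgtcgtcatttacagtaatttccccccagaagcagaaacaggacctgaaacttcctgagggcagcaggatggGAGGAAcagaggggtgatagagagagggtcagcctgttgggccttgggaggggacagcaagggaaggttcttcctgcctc
C1qc: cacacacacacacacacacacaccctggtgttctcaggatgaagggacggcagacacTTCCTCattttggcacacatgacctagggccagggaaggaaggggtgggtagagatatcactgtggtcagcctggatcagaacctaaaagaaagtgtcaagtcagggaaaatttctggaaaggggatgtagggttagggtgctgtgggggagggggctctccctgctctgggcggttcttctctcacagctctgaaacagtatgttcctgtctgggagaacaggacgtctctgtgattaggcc
Pf4: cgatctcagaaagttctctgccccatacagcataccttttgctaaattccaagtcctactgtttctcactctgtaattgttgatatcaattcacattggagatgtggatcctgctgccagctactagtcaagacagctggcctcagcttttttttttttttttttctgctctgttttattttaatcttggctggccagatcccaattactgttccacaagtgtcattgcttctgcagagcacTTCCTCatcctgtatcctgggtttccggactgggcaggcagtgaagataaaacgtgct
Lyz2: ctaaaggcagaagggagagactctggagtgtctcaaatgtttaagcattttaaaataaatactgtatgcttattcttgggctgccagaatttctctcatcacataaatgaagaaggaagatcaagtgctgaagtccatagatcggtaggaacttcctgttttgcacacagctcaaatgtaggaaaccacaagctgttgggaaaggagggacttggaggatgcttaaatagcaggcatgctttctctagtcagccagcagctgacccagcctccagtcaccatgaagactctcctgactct
In C1qb the PU box begins 30 bases upstream of the start and reads forward, in C1qc it begins 193 bases upstream in reverse, and in Pf4 it begins 8 bases upstream in reverse. The Lyz2 window has no GAGGAA on either strand. Windows were found for 8 of the 9 genes, 1 each (C1qa was not matched), and 6 of these 8 hold GAGGAA: C1qb, C1qc, Cd68, Itgam, Laptm5 and Pf4. The same letters stand in 28.3% of the 32851 promoter windows of the table, so the motif is common. The longer GAGGAAG stands in 13.6% of all windows and in 4 of the 8, and GAGGAAGT in 3.2% and in 2 of the 8, C1qc and Pf4. Of the shorter or shifted cores, AGGAAG stands in 35.4% of all windows and in 7 of the 8, AGGAAGT in 9.35% and in 4, and GGAAGT in 23.8% and in 6. These motifs overlap each other, and all were searched on both strands. A match is a description of the letters and not a measured site.

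Total counts ran from 1035485 to 4665896 per library, so that 3 counts correspond to between 0.612 and 2.90 CPM, the counts scaled to a fixed total per library with TMM factors. C57BL/6 replicate 1 stood apart: averaged over the other 5 libraries, its correlation across genes was 0.779, where theirs were 0.870 to 0.910. Gene GC content and length accounted for 42.4% of the variance of its deviation from the gene means, against 4.17% to 17.9% in the others. The strain differences of the 9 genes are therefore also given without it. Of 19 fibroblast genes 18 were in the table, and their summed level was 5324 to 23508 CPM, above the 613 to 1918 CPM of the 9 macrophage genes in every library. Of the 15 macrophage markers set for the check of the label, which include 7 of the 9 genes, all 15 were in the table and 13 passed the filter. The defining markers Adgre1 (F4/80) and Ptprc (CD45) did not pass, at 0 to 8.77 CPM and 0 to 3.91 CPM. The 15 markers were set with earlier results of these data known, so their presence is not an independent check of the label. Of a wider list of 47 macrophage surface receptor genes, 32 were in the table and 19 passed the filter.

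The mean of each of the 9 genes was higher in the C57BL/6 cultures, and Pf4, C1qb and C1qc showed the largest differences in the reported fit. The place of C1qc depended on the fit. Without C57BL/6 replicate 1 the difference of Itgam was larger than that of C1qc, and with an offset for GC content and length those of Itgam and Fcer1g were. In these bulk samples, fewer cells of a type and less RNA per cell cannot be told apart. None of the 9 passed an adjusted p of 0.05 in edgeR's quasi-likelihood test over 8752 genes, which called 0.206% of all tested genes in either direction and 0.137% as higher in C57BL/6. In 8 of the 9 the lowest C57BL/6 library lay above the highest BALB/c library, a pattern that 6.22% of all tested genes showed. Without C57BL/6 replicate 1 this also held for 8 of the 9, beside 9.75% of 9065 tested genes. Since the genes were chosen on this contrast, nothing is read from these counts. The difference ran from 1.28-fold for Lyz2 to 3.65-fold for Pf4, and 7 of the 9 were at least 2-fold higher in C57BL/6. That count was 4 without C57BL/6 replicate 1 or without BALB/c replicate 2, and 5 with the offset for GC content and length or with library totals alone.

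C1qa was at 131, 68.7 and 96.8 CPM in BALB/c and at 351, 148 and 142 CPM in C57BL/6, each in the order of replicates 1, 2 and 3, as in all lists of values that follow. The strains did not overlap, but C57BL/6 replicates 2 and 3 lay close above BALB/c replicate 1. The means were 98.7 ± 31.1 and 214 ± 119 CPM (SD, n = 3 each), with a log2 difference, BALB/c minus C57BL/6, of -1.11 ± 0.44 (SE) and an edgeR adjusted p of 0.954. Without C57BL/6 replicate 1 the log2 difference of C1qa was -0.57, and with an offset for GC content and length it was -0.70.

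C1qb was at 58.0, 38.3 and 47.4 CPM in BALB/c and at 258, 83.6 and 146 CPM in C57BL/6. All C57BL/6 libraries were above all BALB/c libraries, and the spread lay mostly within C57BL/6. The means were 47.9 ± 9.88 and 163 ± 88.5 CPM (SD, n = 3 each), with a log2 difference of -1.76 ± 0.43 and an edgeR adjusted p of 0.552. DESeq2 gave it an adjusted p of 0.0332, and without C57BL/6 replicate 1 the log2 difference in edgeR was -1.29.

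C1qc was at 70.0, 36.1 and 53.2 CPM in BALB/c and at 179, 109 and 115 CPM in C57BL/6. The strains were well separated, with replicate 1 the highest of each strain. The means were 53.1 ± 16.9 and 135 ± 38.4 CPM (SD, n = 3 each), and the log2 difference was -1.34 ± 0.34 with an edgeR adjusted p of 0.592. It was -1.11 without C57BL/6 replicate 1.

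The C1q genes did not keep a fixed ratio to each other. The counts of C1qb relative to those of C1qa in the same library were 0.444, 0.557 and 0.490 in BALB/c and 0.735, 0.566 and 1.02 in C57BL/6. All 3 C57BL/6 ratios were higher than all 3 BALB/c ratios, although C57BL/6 replicate 2 was only just above BALB/c replicate 2. The counts of C1qc relative to C1qa were 0.536, 0.526 and 0.550 in BALB/c and 0.509, 0.741 and 0.811 in C57BL/6, where replicate 1 was the lowest of the 6. These ratios compare the same genes across libraries, and say nothing of the relative amounts of their RNA. The genes were chosen with their strain difference known, so nothing is read from how the ratios separate the strains.

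Pf4 was at 52.0, 39.4 and 37.7 CPM in BALB/c and at 147, 182 and 144 CPM in C57BL/6. Among the 9 genes it had the widest gap between the strains relative to their spread, and C57BL/6 replicate 1 did not stand out in it. The means were 43.0 ± 7.82 and 158 ± 21.3 CPM (SD, n = 3 each), with a log2 difference of -1.87 ± 0.26 and an edgeR adjusted p of 0.0535, the lowest of the 9. The adjusted p was 0.0311 without C57BL/6 replicate 1, 0.0241 with an offset for GC content and length, and 2.6e-07 in DESeq2. It was 0.157 to 0.528 when any other single library was left out, and 0.0543 to 0.0792 with other scalings or filters. DESeq2 called 0.526% of all tested genes as higher in C57BL/6, and Pf4 and C1qb were the only ones of the 9 that it called.

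The ratio of Pf4 to the other genes depended on the gene it was set against. Relative to Cd68 in the same library, its counts were 1.28, 1.39 and 0.929 in BALB/c and 1.73, 3.24 and 2.26 in C57BL/6, so the strains did not overlap. Relative to C1qa they were 0.398, 0.573 and 0.390 in BALB/c and 0.417, 1.23 and 1.01 in C57BL/6, and the strains overlapped through C57BL/6 replicate 1. These genes were chosen with their strain difference known, so nothing is read from how the ratios separate the strains. Platelets are the other known source of Pf4. Of 8 platelet and megakaryocyte genes 3 were in the table, Gp9 and Gp1ba were not among the genes analysed, and the platelet chemokine Ppbp was at 1.33, 21.1 and 14.5 CPM in BALB/c and at 1.53, 7.03 and 21.2 CPM in C57BL/6. The strains overlapped in Ppbp, whose log2 difference was 0.23 with an edgeR adjusted p of 0.976. The summed level of the platelet list was 8.00 to 24.0 CPM in BALB/c and 8.40 to 24.7 CPM in C57BL/6. The part of platelet RNA in the Pf4 values was not tested.

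**Figure D1:**
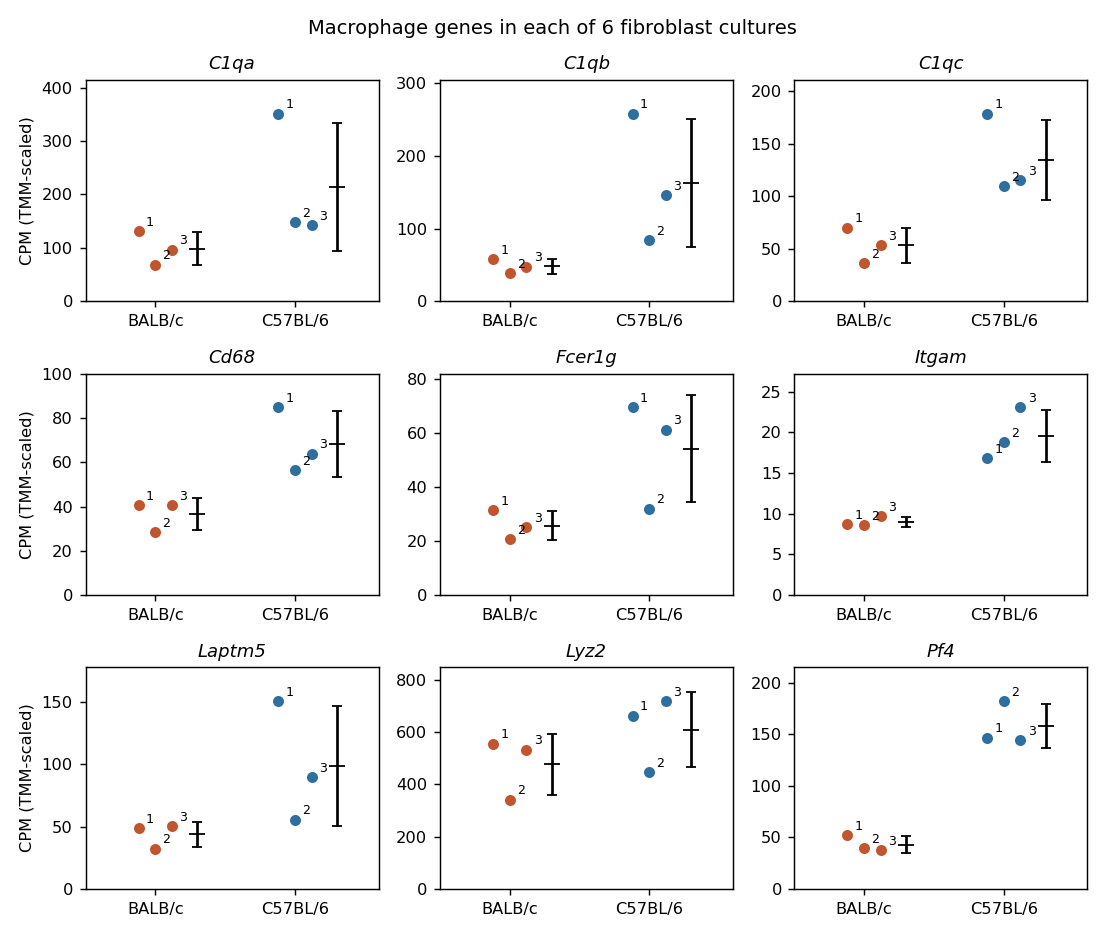
CPM of each of the 9 genes (vertical axes, linear, TMM-scaled) in the 6 libraries, with replicate numbers beside the points; the bar is the mean ± SD of 3 libraries per strain. In every panel but that of Lyz2 the C57BL/6 points lie above the BALB/c points, and C57BL/6 replicate 1 is far above its own strain for C1qa (351 CPM) and C1qb (258 CPM) but not for Pf4 (147 CPM).

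Among the lysosomal genes, Cd68 was at 40.7, 28.3 and 40.6 CPM in BALB/c and at 84.8, 56.3 and 63.9 CPM in C57BL/6. The strains did not overlap, and BALB/c replicate 2 was the lowest library. The means were 36.5 ± 7.15 and 68.3 ± 14.8 CPM (SD, n = 3 each), with a log2 difference of -0.91 ± 0.30 and an edgeR adjusted p of 0.954. It was -0.75 without C57BL/6 replicate 1.

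Laptm5 was at 48.7, 32.2 and 50.3 CPM in BALB/c and at 150, 55.5 and 89.6 CPM in C57BL/6. The strains did not overlap, but C57BL/6 replicate 2 lay only just above BALB/c replicate 3, and C57BL/6 replicate 1 was the highest. The means were 43.7 ± 10.02 and 98.5 ± 48.1 CPM (SD, n = 3 each), with a log2 difference of -1.18 ± 0.41 and an edgeR adjusted p of 0.954. It was -0.77 without C57BL/6 replicate 1.

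Lyz2 was at 555, 340 and 532 CPM in BALB/c and at 662, 445 and 717 CPM in C57BL/6. It was the 1 gene of the 9 whose strains overlapped, as C57BL/6 replicate 2 lay below BALB/c replicates 1 and 3. The means were 476 ± 118 and 608 ± 144 CPM (SD, n = 3 each), and the log2 difference of -0.36 ± 0.30 was near its standard error, with an edgeR adjusted p of 0.954, and became -0.30 without C57BL/6 replicate 1. It was -0.16 without BALB/c replicate 2 and -0.73 with an offset for GC content and length, so its size depended on these choices. As a share of the counts of the 9 genes, Lyz2 made up 55.8%, 55.5% and 59.6% in BALB/c and 34.5%, 39.4% and 47.7% in C57BL/6. Every BALB/c share was above every C57BL/6 share, and the exact 95% interval of the nearest libraries, 53.2% to 57.9% in BALB/c replicate 2 and 46.6% to 48.9% in C57BL/6 replicate 3, did not overlap. The intervals cover counting error only. The other genes in the share were chosen with their strain difference known, so nothing is read from the separation of the shares.

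The genes of receptor chains had the fewest counts of the 9. Fcer1g was at 31.4, 20.8 and 25.2 CPM in BALB/c and at 69.5, 32.04 and 61.2 CPM in C57BL/6. C57BL/6 replicate 2 (41 counts, exact 95% interval 23.0 to 43.5 CPM) could not be told from BALB/c replicate 1 (47 counts, 23.0 to 41.7 CPM), and the strains overlapped when libraries were scaled to their totals or upper quartiles. The means were 25.8 ± 5.32 and 54.3 ± 19.7 CPM (SD, n = 3 each), with a log2 difference of -1.08 ± 0.38 and an edgeR adjusted p of 0.954. Leaving out C57BL/6 replicate 1 gave -0.91.

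Itgam had 13, 24 and 10 counts in BALB/c and 22, 24 and 113 in C57BL/6, or 8.67, 8.59 and 9.68 CPM against 16.8, 18.8 and 23.1 CPM. The BALB/c libraries were close to each other, every C57BL/6 library was higher, and the highest was replicate 3, the deepest library. The means were 8.98 ± 0.606 and 19.5 ± 3.20 CPM (SD, n = 3 each), with a log2 difference of -1.13 ± 0.37 and an edgeR adjusted p of 0.954. The difference was -1.25 without C57BL/6 replicate 1, slightly larger in size than with it.

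**Figure D2:**
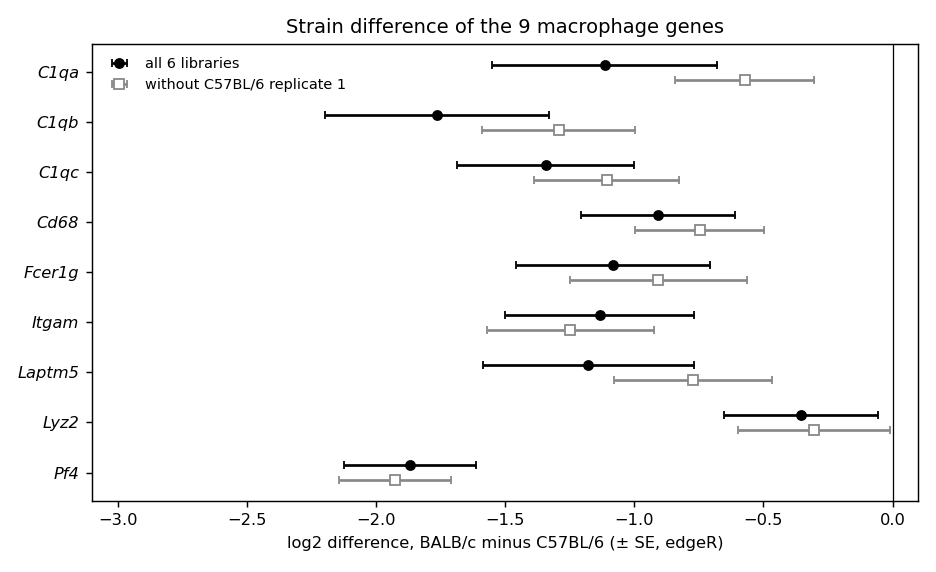
Log2 difference, BALB/c minus C57BL/6, of the 9 genes with its standard error from edgeR (horizontal axis), with all 6 libraries (filled points) and without C57BL/6 replicate 1 (open squares). All estimates lie below 0, C1qa moves from -1.11 to -0.57 without that library, and Pf4 stays at -1.87 and -1.93.

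Over the 6 libraries the 9 genes moved together, a property that their choice already contains. All 36 pairs of the genes had a Pearson's r of log2 CPM above 0, with a median of 0.85. With the strain means removed, 25 of the 36 were above 0, and r ran from -0.60, for C1qa and Itgam, to 0.97. Every pair below 0 held Itgam or Pf4. The mean log2 CPM of the 9 genes, each centred on its own 6-library mean, was -0.31, -0.89 and -0.50 in the BALB/c cultures. It was 0.95, 0.19 and 0.55 in the C57BL/6 cultures. The order from high to low was C57BL/6 replicates 1, 3 and 2 and then BALB/c replicates 1, 3 and 2. The gap between the strains, which the choice of the genes also contains, was wider than the pooled SD within strains of 0.34. BALB/c replicates 1 and 3 differed by less than that SD. Centred without C57BL/6 replicate 1, the means were -0.15, -0.69 and -0.30 in BALB/c and 0.38 and 0.75 in C57BL/6 replicates 2 and 3, so the strains again did not overlap. The counts of the 9 genes together made up 0.102%, 0.0631% and 0.0891% of all counts in BALB/c and 0.165%, 0.112% and 0.158% in C57BL/6.

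C1qb, C1qc, Cd68 and Fcer1g put all 6 libraries in this same order, though some of its steps lay within counting error. Cd68 was at 40.69 and 40.64 CPM in BALB/c replicates 1 and 3. Fcer1g was at 32.04 CPM in C57BL/6 replicate 2 and 31.4 CPM in BALB/c replicate 1. BALB/c replicate 2 was the lowest library for 8 of the 9 genes, the exception being Pf4, which was lowest in BALB/c replicate 3. C57BL/6 replicate 1 was the highest for 6 of the 9, with Itgam and Lyz2 highest in C57BL/6 replicate 3 and Pf4 in C57BL/6 replicate 2. Within C57BL/6, replicate 2 was the lowest library for 6 genes and the highest for Pf4. Over the 6 libraries the highest level was between 2.11 times the lowest for Lyz2 and 6.74 times for C1qb.

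**Figure D3:**
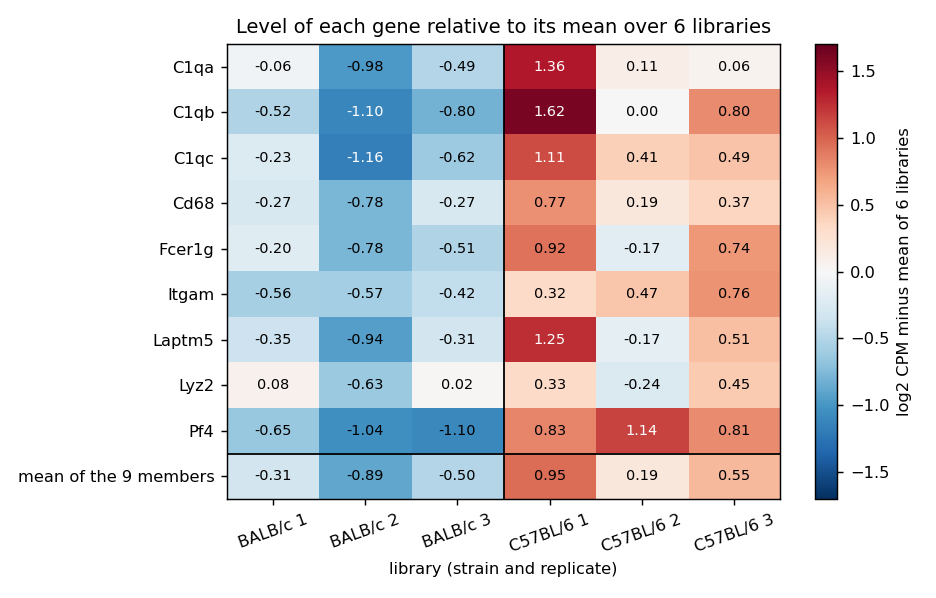
Log2 CPM of each gene minus its mean over the 6 libraries (colour and printed value, log2 units), with the mean of the 9 genes in the last row. Values run from -1.16 for C1qc in BALB/c replicate 2 to 1.62 for C1qb in C57BL/6 replicate 1, and the Pf4 row differs from the others in being highest, at 1.14, in C57BL/6 replicate 2.

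Markers of other cells also varied between the libraries, and their part in the values above was not tested. The summed level of 12 epithelial genes in the table, of 14 listed, was 1713, 9853 and 7638 CPM in BALB/c and 16157, 2888 and 9210 CPM in C57BL/6. It was highest in C57BL/6 replicate 1, as were the 9 macrophage genes, but BALB/c replicate 2, lowest for the macrophage genes, was the next highest for the epithelial genes. The summed level of the fibroblast genes was 21047, 10099 and 16363 CPM in BALB/c and 5324, 23508 and 12059 CPM in C57BL/6, lowest in C57BL/6 replicate 1. Both sums overlapped between the strains. Their highest single genes, Krt18, a keratin of simple epithelia, and Sparc, a matrix protein of fibroblasts, had log2 differences of -0.65 and 0.10.

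**Figure D4:**
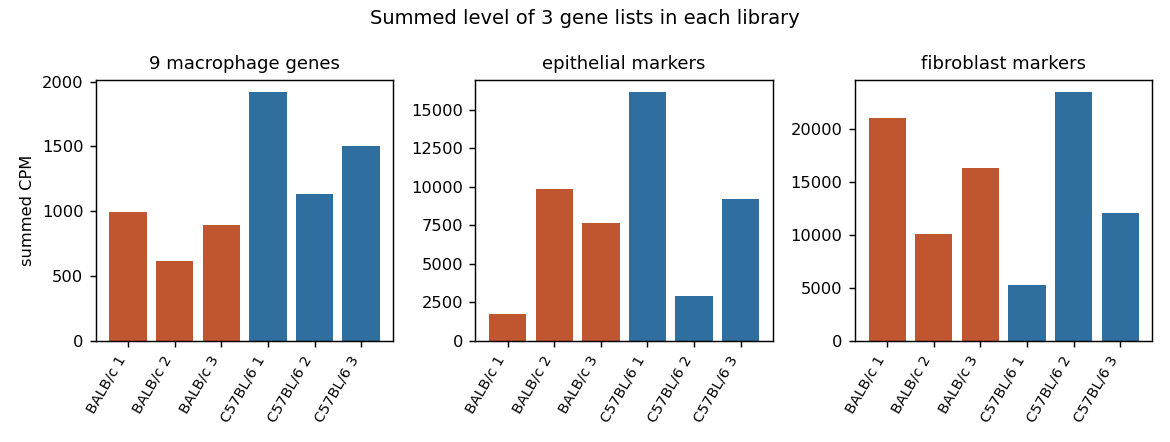
Summed CPM (vertical axes from 0) of the 9 macrophage genes, the epithelial markers and the fibroblast markers in each of the 6 libraries, with BALB/c and C57BL/6 in different colours. The macrophage sum is 613 to 995 CPM in BALB/c and 1131 to 1918 CPM in C57BL/6, while the epithelial and fibroblast sums overlap between the strains.

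Genes of other blood cells were scarce. Of 14 T and NK cell genes 1 was in the table, Lck, at 0.968 to 10.7 CPM, and of 7 B cell and 6 erythroid genes there were 0. Of 10 neutrophil genes 3 were in the table, the highest being S100a9, a calcium-binding protein of neutrophils and monocytes, at 3.34, 1.07 and 0.968 CPM in BALB/c and 9.93, 6.25 and 8.16 CPM in C57BL/6. Of 6 dendritic cell genes 2 were in the table, with Zbtb46 highest at 2.00 to 3.91 CPM, and of 7 mast cell genes 1, Kit, at 0 to 2.24 CPM. No gene of these lists passed the filter on low counts.

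The wider set of macrophage genes leaned the same way as the 9, with smaller differences and no call. Of 118 other genes listed by role, 95 were in the table and 61 were tested; 49 of these were higher in C57BL/6 and 12 in BALB/c, with a median log2 difference of -0.50 beside 0.01 over all 8752 tested genes. In edgeR 0 of the 61 passed an adjusted p of 0.05, and DESeq2 also called 0. An unadjusted p under 0.05 was reached by 15 of the 61, beside 3.86% of all tested genes. Of the 61, the strains were apart with C57BL/6 higher in 14, beside the 6.22% of all tested genes given above, and in 26 of 63 without C57BL/6 replicate 1, where the share of all tested genes is the 9.75% given above. Lists of some other cell types also leaned this way. Higher in C57BL/6 were 8 of 11 tested epithelial genes with a median of -0.65 and 4 of 5 endothelial genes with a median of -0.65. So were 3 of 4 pericyte genes, with a smaller median of -0.43. The strains were apart with C57BL/6 higher in 1 of the 11, 0 of the 5 and 0 of the 4. The median was -0.06 over 16 fibroblast genes and 0.32 over 2 adipocyte genes, and whether the macrophage lists differ from any of these was not tested. The mean centred log2 CPM of the 61 was -0.23, -0.29 and -0.18 in BALB/c and 0.33, -0.01 and 0.38 in C57BL/6, so C57BL/6 replicate 2 lay nearer to BALB/c than the others did.

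Of 19 tested surface receptor genes 15 were higher in C57BL/6, with a median log2 difference of -0.49, and 2 did not overlap. Csf1r, the receptor for the main macrophage growth factor, was at 16.7, 13.6 and 22.3 CPM in BALB/c and at 48.1, 17.2 and 32.9 CPM in C57BL/6. Its strains overlapped through C57BL/6 replicate 2, and the log2 difference was -0.92 ± 0.45 with an edgeR adjusted p of 0.954. The other receptors with the highest levels differed little. Cd14, a co-receptor for bacterial lipopolysaccharide, had a log2 difference of -0.04 ± 0.54, Fcgr3, an Fc receptor for IgG, -0.21 ± 0.34, Sirpa, an inhibitory receptor for CD47, -0.38 ± 0.31, and Csf2ra, a chain of the GM-CSF receptor, 0.21 ± 0.33. None of these 5 passed the test.

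Of 18 tested genes of signalling and the cytoskeleton 14 were higher in C57BL/6, with a median of -0.53. Tyrobp, the adaptor DAP12 that pairs with many myeloid receptors, was at 44.7, 37.9 and 35.8 CPM in BALB/c and at 125, 35.2 and 61.8 CPM in C57BL/6. C57BL/6 replicate 2 held the lowest level of the 6, close to that of BALB/c replicate 3. In Fcer1g, whose product is a related adaptor, the same library also lay close to a BALB/c library, at 32.04 CPM beside 31.4 CPM in BALB/c replicate 1. The log2 differences were -0.90 ± 0.46 for Tyrobp, -0.58 ± 0.33 for Cyba, a subunit of the phagocyte NADPH oxidase that other cells also express, -0.74 ± 0.32 for Unc93b1, a chaperone of Toll-like receptors, -0.34 ± 0.55 for Plcg2, a phospholipase, and 0.07 ± 0.33 for Arhgdib.

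All 8 tested transcription factor genes were higher in C57BL/6, with a median of -0.63 and 2 that did not overlap. Spi1, which encodes PU.1, was at 6.67, 8.23 and 16.5 CPM in BALB/c and at 29.0, 9.38 and 11.6 CPM in C57BL/6. BALB/c replicate 3 exceeded C57BL/6 replicates 2 and 3 in it, and its log2 difference was -0.69 ± 0.60 with an edgeR adjusted p of 0.954. Irf5, a regulator of inflammatory cytokines, had -0.91 ± 0.47, and Cebpa, Cebpb and Runx1, which cells outside the blood also use, had -0.30 ± 0.43, -0.23 ± 0.24 and -0.13 ± 0.34.

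Of 16 tested effector and secreted genes 12 were higher in C57BL/6, with a median of -0.62. Spp1, which encodes osteopontin, a secreted protein of macrophages and of other cells, went the other way at 2851, 2626 and 2200 CPM in BALB/c and 244, 1351 and 1218 CPM in C57BL/6. It was the 1 gene of the 61 that did not overlap with BALB/c higher, and its log2 difference was 1.45 ± 0.57 with an edgeR adjusted p of 0.954. Hmox1, the heme oxygenase, and Apoe, a lipid carrier, did not overlap with C57BL/6 higher, with log2 differences of -0.89 ± 0.33 and -0.93 ± 0.35. Cxcl16 and Ccl6, both chemokines, overlapped, with -0.50 ± 0.64 and -0.16 ± 0.29.

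**Figure D5:**
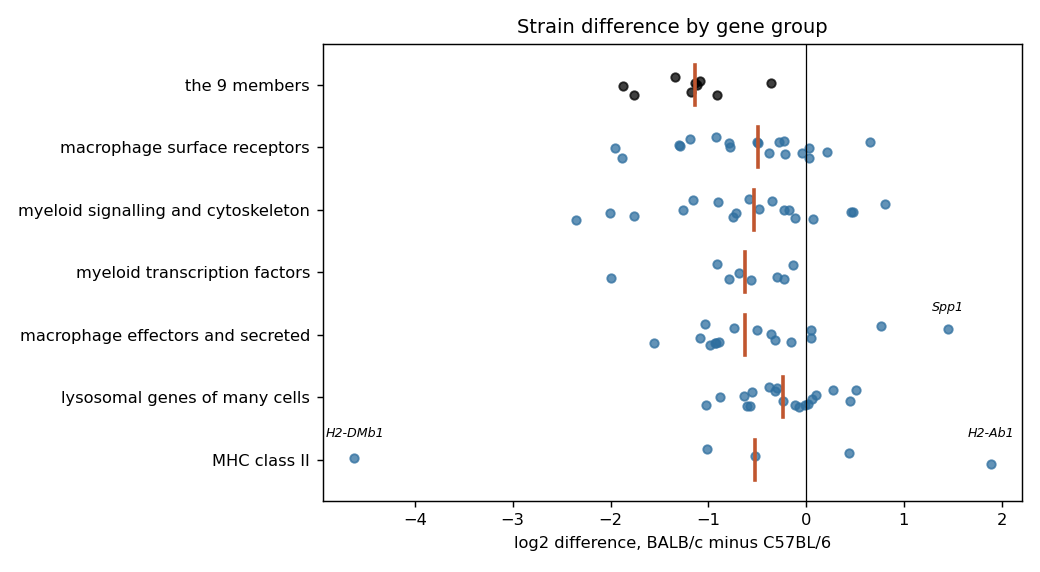
Log2 difference, BALB/c minus C57BL/6 (horizontal axis), of each tested gene of the 9 and of 6 other gene lists, with the median of each list as a vertical bar. The medians are -1.13 for the 9 genes, -0.49 to -0.63 for the 4 other macrophage lists and -0.23 for lysosomal genes of many cells; the labelled points are Spp1, H2-Ab1 and H2-DMb1.

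Of 19 tested lysosomal genes that many cells express 13 were higher in C57BL/6, with a median of -0.23, 3 that did not overlap and 0 calls. The log2 difference was -1.02 ± 0.34 for Lgals3, the galectin-3 gene, -0.88 ± 0.56 for Ctsd, a protease, -0.57 ± 0.28 for Grn, the progranulin gene, and -0.38 ± 0.25 and -0.07 ± 0.19 for Lamp1 and Cd63, which encode membrane proteins of lysosomes. Ctsd reached 6793 CPM in C57BL/6 replicate 1, against 1239 to 2718 CPM in the other 5 libraries. Of 6 tested complement partners of C1q, 1 was called. C1s1, a serine protease of the C1 complex, was at 3.34, 4.65 and 6.77 CPM in BALB/c and at 68.8, 40.6 and 66.1 CPM in C57BL/6. Its log2 difference was -3.59 ± 0.41, with an edgeR adjusted p of 0.0275. The call was lost without any 1 of the libraries other than C57BL/6 replicate 1, at adjusted p of 0.0522 to 0.274, and with the offset for GC content and length, at 0.0715. Of 5 tested genes of MHC class II, which present peptides to helper T cells, 0 were called. H2-Ab1 was higher in BALB/c, with a log2 difference of 1.89 ± 0.30 and an edgeR adjusted p of 0.117, while Cd74, the invariant chain, had -1.01 ± 0.63. H2-DMb1, a chain of the peptide-loading factor H2-M, had 0, 1 and 2 counts in BALB/c and 37, 12 and 55 in C57BL/6, so the strains did not overlap, with an edgeR adjusted p of 0.288. No fold is given for it, as its BALB/c counts were at or under the floor of 3.

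The genes whose pattern was most like the mean of the 9 were ranked by Pearson's r of log2 CPM over the 6 libraries, among the 7722 other genes whose counts averaged at least 20. These r values are descriptions over 6 points that share the strain difference. The median over all genes was 0.00, and 113 genes, or 1.46%, had r above 0.9. The 10 highest were C1qtnf12, Unc93b1, Map1s, Rbm42, Tubb3, Csrnp1, Fstl3, Lpin3, Wdr83os and Cfp, with r from 0.97 to 0.98. Of these, Unc93b1 and Cfp, which encodes properdin of the alternative complement pathway, were on the macrophage lists, of which 44 genes were compared. C1qtnf12, which encodes a secreted protein with a C1q-like domain, had the highest r and was at 28.0, 21.8 and 28.1 CPM in BALB/c and 61.1, 45.3 and 58.0 CPM in C57BL/6. Tubb3, a tubulin best known from neurons, was at 39.4, 10.4 and 22.3 CPM in BALB/c and at 199, 118 and 117 CPM in C57BL/6. All 10 were higher in every C57BL/6 library than in every BALB/c library, beside 6.22% of all tested genes. The ranking largely fixes this, as the mean of the 9 genes itself separates the strains, so nothing is read from it. With Spearman's rank correlation 19 genes tied at the value of 1, and 4 of the 10 were among the highest.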

How the data were processed

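The authors deposited raw counts per gene symbol in 1 table for 6 libraries of 3′ RNA. The submitters' processing notes name STAR 2.4.2a, HTSeq, bcl2fastq and mm10. Settings, strand, use of molecular identifiers and treatment of reads with several matches are not given. Reads of BALB/c alleles can be lost in alignment to the C57BL/6 reference, which was not tested. Columns were assigned by the library names in the labels, part of which the header separates with blanks. Each gene reaches at least 6 counts in some library.

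Counts were tested two-sided with edgeR 4.0.16 (R 4.3.3), with filterByExpr at a minimum count of 10, TMM scaling, strain as the only term, robust quasi-likelihood dispersion, and Benjamini-Hochberg adjustment over 8752 genes at 0.05. The biological coefficient of variation was 41.1%. DESeq2 1.42.0 was an alternative. CPM are TMM-scaled, log2 CPM used a prior count of 2, and means are ± SD over 3 libraries. The test was tried on simulated counts. Replicates of a strain were compared by a chi-square test, which gave 10.8 to 57.2 per degree of freedom, above sampling noise, and none was treated as a copy.

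The members, lists and tests were chosen with earlier results of these data known. The offset for GC content and length was chosen after seeing the data. The genes named were the members, up to 5 of each list with the highest mean log2 CPM and those past the threshold, the 10 most like the members, leaving out predicted genes, and the highest gene of other cell types. H2-DMb1 is labelled in a plot under the same rule, and 1 result is not reported here. Of the table's symbols, 98.6% were matched to GENCODE vM21. Exact 95% intervals and the 3-count floor take in counting error alone.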

Additional observations from a re-analysis of the deposited data

How the results depend on the processing

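All 9 members were higher in C57BL/6 in all 14 alternative fits of the strain comparison, and their median log2 difference of -1.13 ranged from -0.91 to -1.33. In no alternative did any of the other macrophage genes pass the threshold. Pf4 passed in 3 of the 14 and C1qb in DESeq2 alone. C1s1 was called in 7 of the 14.

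The number of genes called over the whole table depended more on the choices. It was 18 as reported, 11 with library totals alone (5 higher in BALB/c and 6 in C57BL/6, against 6 and 12), and 71 in DESeq2, and the cause was not tested. Leaving out 1 library gave between 0 and 25: 25 without C57BL/6 replicate 1, 5 without C57BL/6 replicate 2, 4 without BALB/c replicate 1, and 0 when C57BL/6 replicate 3 or either of BALB/c replicates 2 and 3 was left out. At an unadjusted p under 0.05 these last 3 gave 261, 205 and 226. These fits have fewer samples. With a replicate block edgeR called 0, with 158 at an unadjusted p under 0.05, and the adjusted p was 0.733 for Pf4 and 0.568 for C1s1. The replicate numbers share no stated source, so they were not taken as pairs. Deviations of same-numbered libraries had correlations of -0.42, -0.40 and -0.08. These do not settle whether the libraries were paired, as the members' mean kept the same replicate order, 1, 3 and 2, in both strains.

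The range over libraries of the members' mean centred log2 CPM was 1.83, and between 1.45 and 1.86 when 1 library was left out, lowest without BALB/c replicate 2 or C57BL/6 replicate 1. With Spearman's correlation 4 of the 10 genes most like the members were kept. Depth limits Itgam, with 10 to 24 counts in 5 of the 6 libraries.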
